A study of Mus musculus with 66 samples.

Results

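The genes described here are mouse loci that still carry the clone number of a RIKEN cDNA library made from testis in place of a gene name. They are the genes whose array annotation symbol ends in Rik and starts with 1700, 4921, 4922, 4930, 4931, 4932 or 4933, and which have a probe set that names no other gene. The rule named 308 genes, of which 295 had a probe set of their own and 13 lay only on probe sets shared with other genes. To be followed, a gene needed signals reaching 50 on 2 or more arrays, which 44 of the 295 did not reach, so 251 of 13472 measured genes were followed, each through its brightest probe set. The second-highest signals just inside this limit were 52.5 for 1700023D09Rik, 52.9 for 1700121L16Rik and 53.6 for 4932412D23Rik. Just outside it they were 49.8 for 1700022I11Rik, 49.1 for 1700112M02Rik and 46.9 for 4933430H16Rik.

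RIKEN clone numbers come from a project that sequenced full-length cDNAs of many mouse tissues, and the leading digits of a number give the library. A locus keeps its clone number while no gene name has been agreed for it. Such loci comprise short protein-coding genes, often with no assigned function, and long non-coding RNAs (lncRNAs), transcripts without a long open reading frame. The testis transcribes an unusually large part of the genome, most of all in spermatocytes, which are in meiosis, and in the round spermatids that follow. In the newborn mouse testis the germ cells are gonocytes. Spermatogonia, spermatocytes, round spermatids and elongating spermatids then appear in that order as the first cohort of germ cells matures.

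Whole testes of BL/6-129 mice were collected on days 0, 3, 6, 8, 10, 14, 18, 20, 30, 35 and 56 postpartum, and the labels name no treatment. Samples of a day carry the numbers 1 and 2. Each sample was measured on 3 array types, called A, B and C here, which makes 66 arrays. The labels do not say whether the samples of a day came from separate animals or from pools, so the p-values measure the spread between these samples, which may be technical. The signals were scaled to a common mean, and every change is relative to all signals of an array. In whole testis, a larger share of cells that express a gene cannot be told apart from more RNA per cell.

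The correlation of log2 signals between the samples of a day lay between 0.885 and 0.976 on type A, 0.815 and 0.952 on type B and 0.809 and 0.950 on type C, lowest at day 0 on types A and B and at day 3 on type C. Days 0 and 20 were the least alike on types A and B. By median onset, the germ cell markers that rose did so in the order in which the cells appear. Of 7 markers of gonocytes and undifferentiated spermatogonia, 0 were higher at day 56 than at day 0 and 2 were lower. Of 7 markers of differentiating spermatogonia 3 were higher, with a median onset at day 6. Of 7 markers of early meiotic prophase 4 were higher, with a median onset at day 11. Medians of 11 and 24 are midpoints between sampled days. All 8 measured pachytene spermatocyte markers were higher at day 56 than at day 0, with a median onset at day 14, as were 8 of 9 round spermatid markers, with a median onset at day 24, and all 10 elongating spermatid markers, with a median onset at day 30. Of 10 Sertoli cell markers, 2 were higher and 6 lower. The 1 measured epididymis marker, Defb42, was not called. The 1 measured adipocyte marker, Adipoq, had a mean signal of 209 at day 56, against 27.1 at day 0, with onset at day 30. Its part in the rises of day 30 was not tested.

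Most of the testis clone loci were higher in the adult than in the newborn testis. The loci are named after clones found in testis libraries, so expression in testis is built into the list. The counts below describe this list and are no independent evidence of expression in testis. By a limma fit, 158 of the 251 were higher at day 56 than at day 0 and 7 were lower, at an adjusted p under 0.05 and at least 2-fold. Among all 13472 genes, 15.9% were higher and 21.1% lower. The median log2 change of the 251 loci was 1.88, against -0.21 for all genes. The 158 loci had a median signal of 464 at day 56, against 32.7 at day 0. In none of them did a sample of day 56 overlap a sample of day 0. With 2 samples per day this says little, as it also held for 39 of the 86 loci not called. The share without overlap was not counted over all genes. The log2 changes of the 158 loci ran from 1.12 to 8.25, with 80 of at least 3 and 39 of at least 5. All genes together gave 273 called rises of at least 5, so that the clone loci made up 14.3% of these. At day 56, 55 loci had a signal of at least 1000, against 7 at day 0.

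The signal limit favours a difference in a locus that passed it only through the later days, so the counts were also taken without the limit. Then 160 of 295 loci (54.2%) were higher at day 56, against 13.6% of all genes. On the arrays of days 0 to 10 alone, 169 of the 251 loci passed the limit, and 87 of these were among the 158 that were higher at day 56. The matching share of all genes was not counted, so this count has no background to be read against.

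Other loci of the same annotation also carry a RIKEN clone name. Of 314 measured loci named after clones of other libraries, 46 were higher at day 56 (14.6%) and 47 lower, with a median log2 change of -0.21. No test of this difference between lists was made, and only the first list was chosen by testis libraries. The share also held across the array types, on which the clone loci are unevenly spread: 4 of 5 on type A, 34 of 49 on type B (69.4%) and 120 of 197 on type C (60.9%), against 14.9%, 14.3% and 16.2% of all other genes on the same types. Of the 159 loci numbered 1700, 108 (67.9%) were higher and all 7 falls were among them. Of the 54 numbered 4930, 29 (53.7%) were higher, as were 12 of the 22 numbered 4933 (54.5%).

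**Figure D1:**
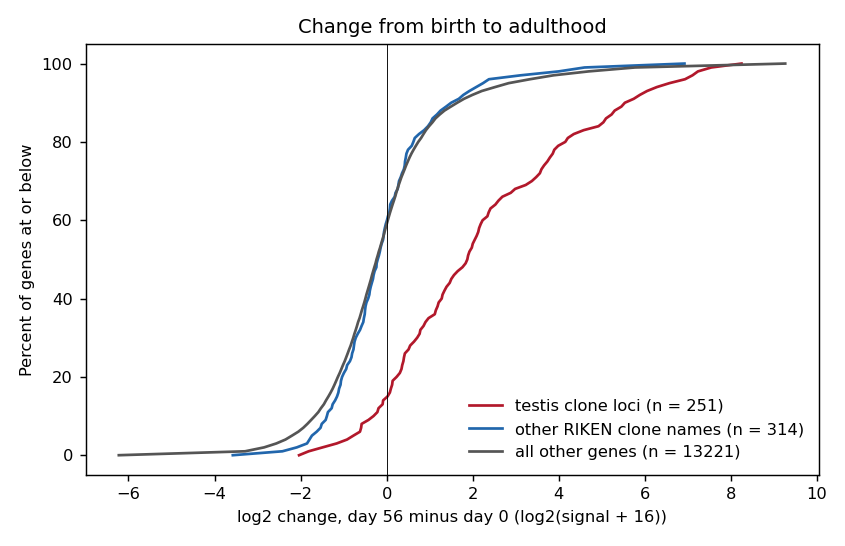
Cumulative share of genes (vertical axis, percent) against the log2 change of day 56 minus day 0 (horizontal axis). The curve of the 251 testis clone loci lies to the right, with its median at 1.88, while the 314 other RIKEN clone names, at -0.21, run close to all other genes, among which they are counted.

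The rises fell into 2 spans of the time course. From day 14 to day 20, 61 loci rose and 2 fell, against 7.4% and 8.38% of all genes. From day 20 to day 35, 71 rose and 6 fell, against 6.06% and 4.34%. Before that little moved: 4 loci rose and none fell from day 0 to day 8 (all genes 1.39% and 1.26%), and 11 rose and none fell from day 8 to day 14 (all genes 1.14% and 0.289%). From day 35 to day 56 limma called 0 loci and 0% of all genes, while 15 of the 251 loci and 1244 of all genes had an unadjusted p under 0.05. Called in either direction were 2.65%, 1.43%, 15.8%, 10.4% and 0% of all genes in these 5 spans in order of age, and 37% from day 0 to day 56. Over all 11 days, the F-test called 180 loci (71.7%), against 54% of all genes.

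A locus has its onset on the earliest day when it exceeded day 0 by these thresholds and went on to do so at all later days. It was day 18 for 49 loci and day 30 for 65, against 4.7% and 4.83% of all genes. It was day 6 for 2 (0.141% of all genes), day 8 for 1 (0.334%), day 10 for 1 (0.401%), day 14 for 13 (1.92%), day 20 for 5 (1.03%), day 35 for 7 (0.468%) and day 56 for 15 (2.03%). No sample was taken between days 20 and 30. An onset is the day on which the thresholds were passed for good, and part of a rise can come before it. Counts of single days moved with single samples. Leaving out sample 1 or sample 2 of day 35 gave 30 or 24 loci with onset at day 56, and leaving out sample 2 of day 0 gave 23. Without sample 1 of day 18, 16 loci had their onset at day 20, and without sample 2 or sample 1 of day 14, 6 or 9 had it at day 14. The sum of loci with onset by day 18 was 66 and that of loci with onset at day 30 or later was 87. Over the samples left out one at a time, these sums lay between 55 and 69 and between 79 and 92.

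**Figure D2:**
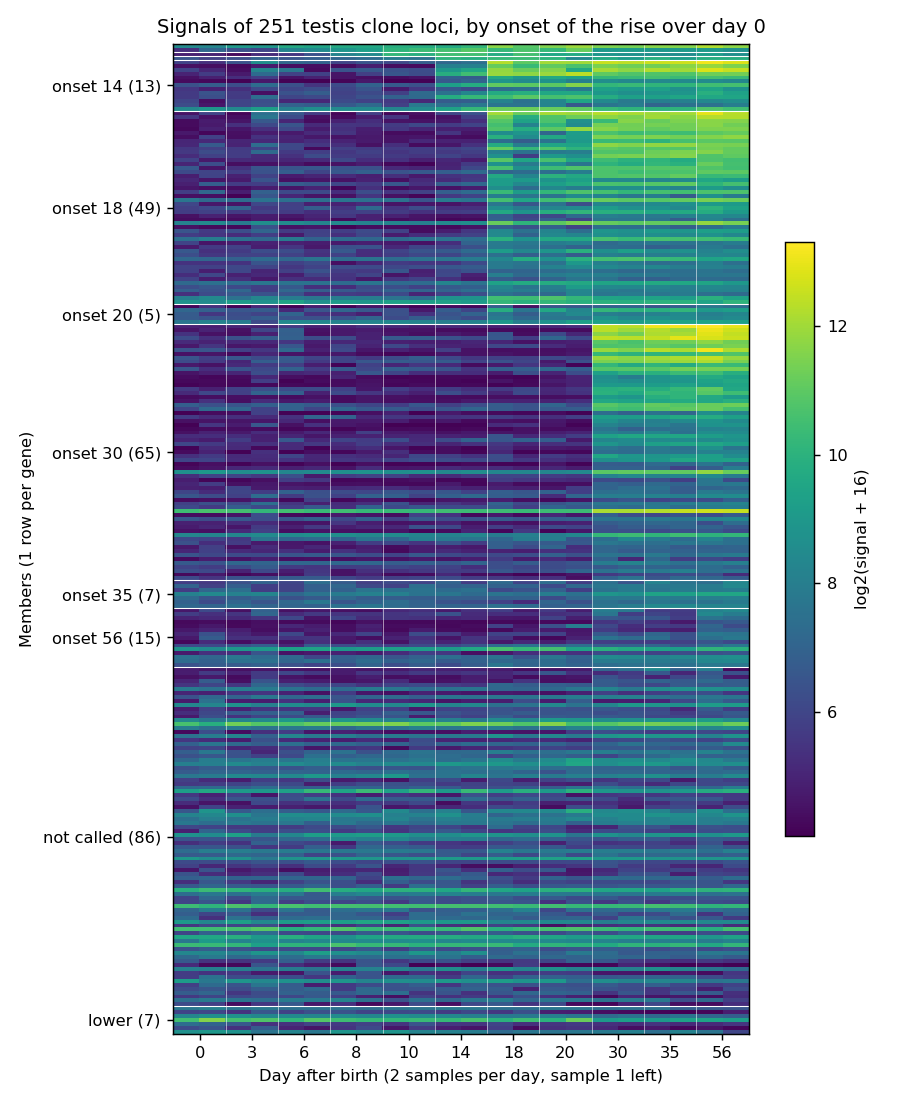
Signals of the 251 loci on a log2(signal + 16) colour scale, 1 row per locus and 1 column per sample, with days running left to right. Rows are grouped by onset, with loci not called and loci lower at day 56 at the bottom; the blocks of 49 and 65 loci brighten at days 18 and 30.

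A pair of X-linked lncRNA loci with the same nearest measured gene was among the earliest to rise. 1700018G05Rik had signals of 13.8 and 14.1 at day 0, 4.2 and 21.3 at day 3, 30 and 66.2 at day 6, 282 and 329 at day 8, and 1150 and 925 at day 10. It peaked at 1404 and 1463 at day 14 and stood at 385 and 364 at day 35 and at 560 and 388 at day 56. From day 0 to day 8 it rose by 3.42 ± 0.33 on the log2 scale (SE, n = 2 per day; limma adjusted p = 2.46e-05), and from day 20 to day 35 it fell by 1.04 (adjusted p = 0.0475). 1700011M02Rik, which overlaps Dmrtc1a, had 272 and 337 at day 6, against 24.2 and 119 at day 0, reached 1488 and 1887 at day 14, and had 516 and 410 at day 56. Its fall from day 20 to day 35 was 1.67 on the log2 scale (limma adjusted p = 0.0125). Dmrtc1a, listed with the DMRT family of transcription factors, is the nearest measured gene of both. It had 262 and 283 at day 8, against 44.5 and 19.8 at day 0, and 372 and 354 at day 56. Over the 11 day means its course correlated with those of 1700018G05Rik (r = 0.95) and 1700011M02Rik (r = 0.94), which is a description over samples that the 3 genes share. The array counts do not separate overlapping genes, and the other probe set of 1700011M02Rik did not follow this course (r = -0.33, log2 change 0.40). Of the 5 X-linked loci, 3 were higher at day 56.

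Another early locus was the pseudogene 1700018B24Rik, with signals of 784 and 668 at day 6, against 326 and 295 at day 0. It went up again from day 14 to day 20, by 1.81 ± 0.25 on the log2 scale (limma adjusted p = 0.000101), to 2968 and 3886 at day 20. The lncRNA locus 1700001L05Rik had its onset at day 10, with 227 and 174 at day 10, against 74.7 and 40.6 at day 0, and 1036 and 893 at day 14. The lncRNA locus 4933427D06Rik was high only in the middle of the course. It had 71.5 and 73.1 at day 0, 293 and 252 at day 8, 320 and 222 at day 10, and 89.9 and 74.2 at day 56. Its rise to day 8 was 1.70 ± 0.30 and its change from day 14 to day 20 was -1.30 ± 0.30 on the log2 scale (limma adjusted p = 0.00311 and 0.00449).

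At day 14, when pachytene spermatocytes are the most advanced germ cells, 13 loci had their onset. The lncRNA 1700008K24Rik stayed between 3.8 and 12.2 in all 10 samples of days 0 to 10. It then had 253 and 256 at day 14, 2211 and 1236 at day 18, and 3721 and 2894 at day 56, a log2 change of 7.23 ± 0.28 over day 0 (limma adjusted p = 4.46e-12). A second probe set gave the same course (r = 0.99, log2 change 6.40), but carries a suffix for probes that may be shared with other sequences. The lncRNA 1700029M20Rik had 916 and 1423 at day 14, against 8.1 and 41.1 at day 8, and peaked at 3891 and 5208 at day 20. Its second probe set gave a like course (r = 0.99). Both carry this suffix, so their agreement does not settle which sequence they read.

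A pair of protein-coding loci peaked between days 18 and 20. 4930524B15Rik had 871 and 1214 at day 14, against 47.5 and 69.0 at day 8. It had 1380 and 1984 at day 18 and 753 and 718 at day 56. 1700102P08Rik overlaps Iho1, which is needed to form the DNA breaks of meiosis, and had 615 and 875 at day 14, against 55.9 and 111 at day 8. It peaked at 2036 and 3086 at day 20, and its fall to day 35 was 1.17 on the log2 scale (limma adjusted p = 0.0382). Among the brightest of all loci was 4930544G11Rik, a protein-coding locus read through a suffixed probe set, with 8824 and 7182 at day 56, against 45.2 and 24.4 at day 0. It had 128 and 157 at day 14, its onset, and 4854 and 2000 at day 18, while sample 2 of day 3 stood apart at 371.

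From day 14 to day 20 the largest rise was that of 1700020D05Rik, a protein-coding locus of chromosome 19 with the second name mage-g2, after a family of cancer-testis antigens. It had 2020 and 3628 at day 20, against 13.6 and 12.7 at day 14, a log2 change of 6.55 ± 0.43 (limma adjusted p = 1.63e-07). 1700123L14Rik, a pseudogene listed with the second name Nup50, a nuclear pore gene, had 1742 and 2404 at day 20, against 7.2 and 38.5 at day 14. The lncRNA 1700108J01Rik had 4303 and 3838 at day 20, against 47.3 and 69.6 at day 14, and the lncRNA 1700026J12Rik had 1548 and 722, against 18.4 and 11.5. In all 4 loci both samples of day 18 were already above every earlier sample. None of them was called between days 20 and 35 or between days 35 and 56. At day 56, 1700108J01Rik had 7907 and 5152.

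The largest change within any span was in the span from day 20 to day 35, and the loci that led it were already up at day 30. 4933411K16Rik, a protein-coding locus of chromosome 19, had signals between 12.6 and 33.4 in the 16 samples of days 0 to 20. It had 5538 and 5216 at day 30, 8882 and 9244 at day 35, and 10168 and 7988 at day 56. Its log2 change from day 0 to day 56 was 8.25 ± 0.29 (limma adjusted p = 1.89e-12), and from day 14 to day 20 it was 0.01 ± 0.29. 1700019M22Rik, a pseudogene of chromosome 12, had 5170 and 4017 at day 30, against 4.8 and 4.4 at day 20. 1700034I23Rik had 3324 and 2598 at day 30, against 54.9 and 17.5 at day 20, and 1700015G11Rik, also known as Ccdc179 after its coiled coil, had 3731 and 2962, against 6.1 and 8.3. In each of these the samples of days 30, 35 and 56 all lay above those of days 0 to 20.

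**Figure D3:**
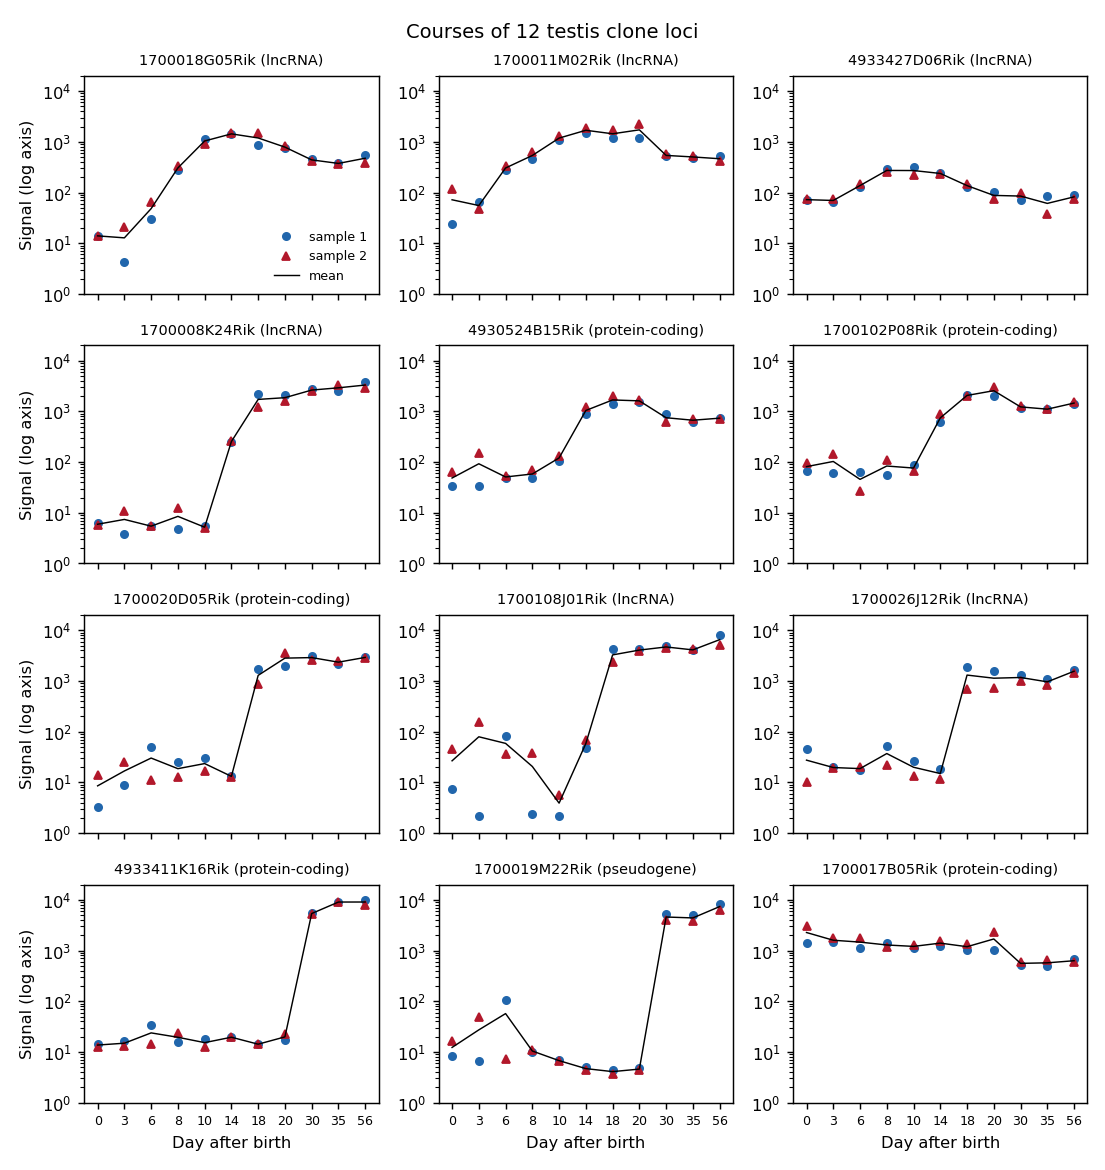
Signals of 12 loci (vertical log axes) by day after birth (horizontal axis, days evenly spaced), with circles for sample 1, triangles for sample 2 and lines for their mean. Rows run from loci that rose by day 8 to loci that rose at day 30; the last panel, 1700017B05Rik, holds the brightest locus that fell.

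Some loci of this late group have a second name that tells more. 1700042G07Rik, listed also as P3r3urf, had 5773 and 3644 at day 56, against 75.8 and 39.3 at day 0. 1700019D03Rik is listed as smAKAP, a small membrane anchor of protein kinase A, and had 368 and 349 at day 56, against 6.3 and 15.4 at day 0. Earlier, with onset at day 18, came 1700074P13Rik, listed as the trypsin-like protease Tryx5, with 1986 and 2203 at day 56, against 10.1 and 2.7 at day 0, and 1700016K19Rik, listed as Liat1, a partner of the arginyl transferase Ate1, with 1099 and 1476, against 13.6 and 97.4. The other probe set of 1700016K19Rik did not follow this course (r = -0.007, log2 change -0.19), while that of 1700074P13Rik did (r = 0.91, log2 change 2.68). These 4 loci were chosen for their second names after their values were seen. In the reference table, 26 of the 251 loci have a second name that is no clone number, and all 239 loci found there keep the clone number as their symbol.

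Loci with onset at days 20, 35 or 56 had smaller rises. The largest changes among them were 2.74 ± 0.59 for the lncRNA 1700017G19Rik, with onset at day 20, 2.17 ± 0.63 for the protein-coding 1700012P22Rik, with onset at day 35, and 2.86 ± 0.63 for the lncRNA 1700105P06Rik, with onset at day 56. For 1700012P22Rik the other probe set changed by only 0.23 (r = 0.33). 1700105P06Rik had 229 and 204 at day 30, 37.5 and 35.9 at day 35, and 269 and 318 at day 56. 1700012H19Rik, an lncRNA whose nearest measured gene is the Sertoli cell factor Sox9, had 749 and 735 at day 56, against 264 and 328 at day 0. Sox9 had 459 and 373 at day 56, against 730 and 1009 at day 0. Calls of the rises of 1700018L02Rik, 1700065I16Rik, 1700012P22Rik, 1700010H22Rik and 1700042O10Rik were each lost when 1 sample of day 0 or day 56 was left out (limma adjusted p between 0.0565 and 0.331).

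In the reference table, 94 of the loci are protein-coding, 138 are lncRNAs and 19 are pseudogenes, another RNA or not listed. Of the protein-coding loci 68 (72.3%) were higher at day 56 and 2 lower, and of the lncRNAs 79 (57.2%) were higher and 4 lower. The median signal of the protein-coding loci was 672 at day 56, against 51.2 at day 0. That of the lncRNAs was 185 at day 56, against 41.1 at day 0. Signals of different probe sets have no common scale, so these levels are not set against each other. The timing of the rise was also described by class. Among those that were higher at day 56, the median lncRNA had made 61.3% of its log2 rise by day 20 (quartiles 7.72% and 93.0%), and the median protein-coding locus 12.2% (quartiles 0.178% and 66.6%). The onset was day 18 or earlier for 38 of the 79 lncRNAs (48.1%) and for 25 of the 68 protein-coding loci (36.8%), and day 30 or later for 37 (46.8%) and 43 (63.2%). Genes outside these loci showed the opposite order of the classes. Their lncRNAs that were higher at day 56 (69 of 492) had made a median 54.1% of the rise by day 20, with 30.4% of onsets by day 18 and 59.4% at day 30 or later. Their protein-coding genes that were higher (1895 of 12596) had made 71.0%, with 48.7% and 44.6%. All 1980 other genes that were higher together had 70.6%, 47.7% and 45.5%. Over all alternative settings the median share by day 20 stayed between 57.9% and 72.8% for the lncRNAs and between 6.11% and 23.1% for the protein-coding loci. The split by class was made after the data had been seen, the loci of a class are not replicates, and no test of the difference was made.

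**Figure D4:**
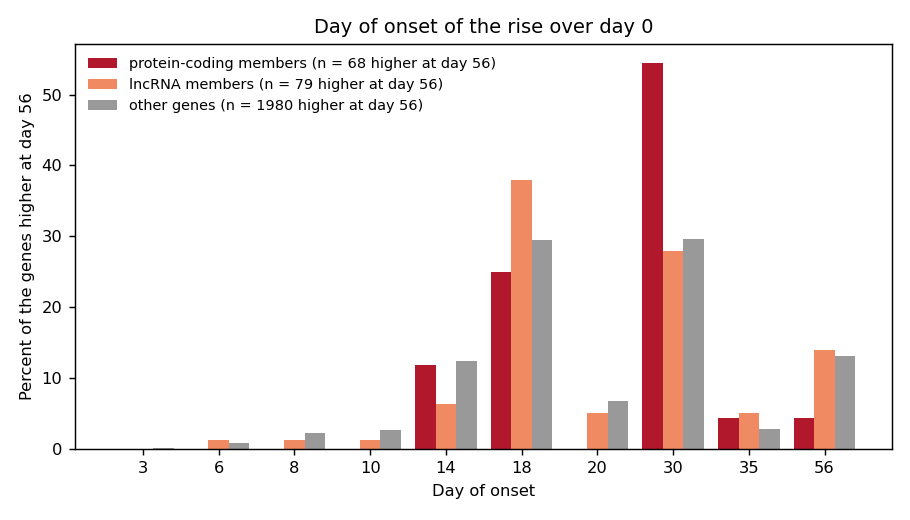
Day of onset (horizontal axis) of the genes higher at day 56, as a percent of each set (bars): 68 protein-coding clone loci, 79 lncRNA clone loci and 1980 other genes. Protein-coding loci stand highest at day 30 (54.4%), lncRNAs at day 18 (38.0%).

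**Figure D5:**
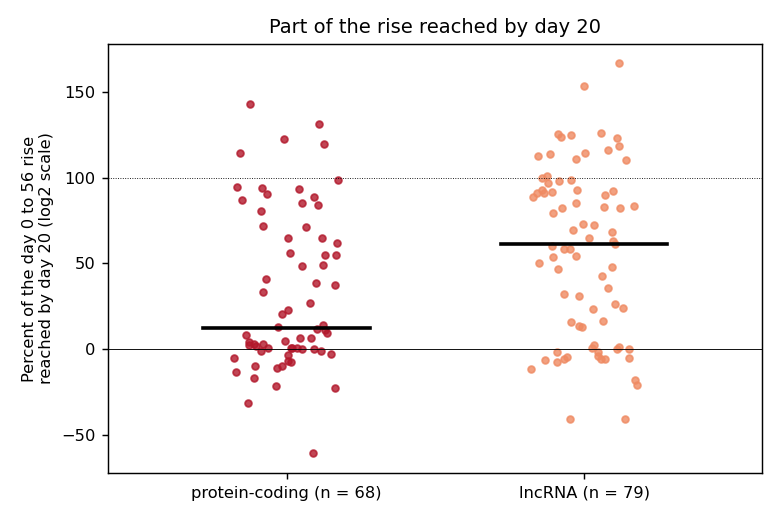
Percent of the log2 rise from day 0 to day 56 that was reached by day 20, 1 point per locus, with bars for the medians of 12.2% (68 protein-coding loci) and 61.3% (79 lncRNAs). Points of the protein-coding loci crowd near 0, and points above 100 are loci that were higher at day 20 than at day 56.

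The 158 loci were chosen as higher at day 56, which favours a peak on that day. Peak days were not counted over all genes. After the rise, 96 of the 158 loci had their highest mean at day 56, 23 at day 35, 16 at day 30 and 23 before day 30. Of these last, 4933404O12Rik, an lncRNA, had 1402 and 1369 at day 18 and 1688 and 1167 at day 20, against 244 and 317 at day 0, and it fell by 1.13 on the log2 scale from day 20 to day 35 (limma adjusted p = 0.00905). 1700037H04Rik, a protein-coding locus, peaked at 1466 and 1619 at day 30 and had 670 and 739 at day 56, against 127 and 123 at day 0. 1700030L22Rik, an lncRNA, is not counted among the 158: it had 124 and 158 at day 30 but 238 and 3.6 at day 56, so that its change from day 0 was not called (1.47 ± 0.75 on the log2 scale, limma adjusted p = 0.122). Without sample 2 of day 56 it was called, at 3.31 (adjusted p = 8.66e-05).

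Falls were few and small. 1700017B05Rik, a protein-coding locus, had 675 and 586 at day 56, against 1440 and 3103 at day 0, a fall by 1.72 on the log2 scale (limma adjusted p = 0.000884) that its other probe set shared (-1.72). From day 20 to day 35 alone it fell by 1.42, with sample 2 of day 20 at 2368 and sample 1 at 1019. 1700025G04Rik, also protein-coding, had 120 and 98.5 at day 56, against 303 and 388 at day 0, and its other probe sets gave -2.23 and -2.14. The lncRNA 1700109G14Rik showed the largest fall, by 2.03, with 183 and 47.8 at day 56, against 412 and 482 at day 0. The other 4, which are 1700123O21Rik, 1700095K22Rik, 1700086O06Rik and 1700021N21Rik, had mean signals at day 0 between 47.6 and 226. Of these, 1700123O21Rik (-0.89), 1700086O06Rik (-0.65) and 1700021N21Rik (-1.0) fell short of 2-fold with a pseudocount of 64. From day 14 to day 20, 1700041I07Rik changed by -1.66 ± 0.57 (limma adjusted p = 0.0457), with signals of 14 and 9.7 at day 20, against 57.9 and 88.0 at day 14.

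Of the 251 loci, 86 were called neither higher nor lower at day 56, with a median signal of 94.3 at day 56, against 87.1 at day 0. The 4 brightest loci without a call over all days were 1700018B08Rik, 1700020L24Rik, 4930412O13Rik and 4930453N24Rik. 1700020L24Rik had 1076 and 1160 at day 56, against 1334 and 1072 at day 0, a log2 change of -0.10 ± 0.20, and kept between 1072 and 1696 in all 22 samples. For 4930453N24Rik the probe sets disagreed. Its brightest had 790 and 1145 at day 56, against 1319 and 1247 at day 0, while its other one, on type A, had 658 and 578, against 17.4 and 40.8, a log2 change of 3.86 (limma adjusted p = 3.68e-09).

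Such disagreement was common. The 56 loci with more than 1 usable probe set had 75 others beside the brightest, of which 50 changed in the same direction from day 0 to day 56. The median correlation with the brightest over the 11 day means was 0.38, with 15 of at least 0.9 and 41 under 0.5. For 1700015G11Rik the other probe set had 20.5 and 87.4 at day 56, against 18.8 and 7.5 at day 0, a log2 change of 1.10 in place of 6.18. For 1700003F12Rik it gave 1.10 in place of 6.91 ± 0.43. Of the 251 brightest probe sets, 94 carry a suffix that marks probes shared with other sequences or chosen under relaxed rules. They include those of 4930544G11Rik, 1700019M22Rik, 1700015G11Rik, 1700034I23Rik and 1700108J01Rik, which are among the brightest loci at day 56. With suffixed probe sets left out, the rise of 1700015G11Rik was no longer called (log2 change 1.10, limma adjusted p = 0.0892).

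Some loci overlap named genes, which the arrays may not separate. Of the 239 loci placed in the reference, 118 overlap another gene, 85 of them a protein-coding one. 1700003F12Rik overlaps Necab3, a calcium-binding protein gene, and both had their onset at day 30 (r = 0.97): 1700003F12Rik had 6875 and 6100 at day 56, against 57.0 and 23.8 at day 0, and Necab3 had 205 and 228, against 24.2 and 17.4. 1700034I23Rik overlaps Abhd18 (r = 0.91), which had 530 and 485 at day 56, against 115 and 200 at day 0. Of 153 placed loci that were higher at day 56, the nearest measured gene was higher for 38 (24.8%) and lower for 36, and the median correlation was -0.21. For all 13442 placed genes the nearest measured gene was higher for 2282 (17.0%) and lower for 2704, and the median correlation was 0.08. For the other genes that were higher at day 56 the nearest one was higher in 18.8%.

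The sequences before the start of the loci were read for 3 motifs of factors that act in the male germ line. The 250 bases upstream of the start were taken from RefSeq (build GRCm38.p6) for the 192 loci that have an entry, and both strands were searched. GTTGCCA, 1 arm of the X-box bound by RFX factors, lay upstream of 18 of the 192 loci (9.38%), against 4.19% of all 27025 genes with an entry. It was found in 11 of 67 loci with onset at day 30 or later (16.4%) and in 2 of 57 with onset by day 18 (3.51%). Of 66 loci not higher at day 56, 5 had it (7.58%). Among the other genes the shares were 5.79% for a late and 6.81% for an early onset. TGACGTCA, the cAMP response element bound by CREM, was found in 2 loci (1.04%, against 1.77% of all genes). TAACGG, the core bound by MYB factors, was found in 6 (3.13%, against 2.52%). These counts are small, were not tested and rest on letters alone. The first 3 sequences below are the protein-coding loci with onset at day 30 and an X-box arm, chosen after their values were seen, the fourth is an lncRNA with onset at day 35 and an X-box arm, and the fifth is an lncRNA with onset at day 14 and a MYB core. Each is given 5′ to 3′ on the strand of the locus and ends at its start, with the motif in capitals.
1700001L19Rik (chr13:68597189-68597438, plus strand): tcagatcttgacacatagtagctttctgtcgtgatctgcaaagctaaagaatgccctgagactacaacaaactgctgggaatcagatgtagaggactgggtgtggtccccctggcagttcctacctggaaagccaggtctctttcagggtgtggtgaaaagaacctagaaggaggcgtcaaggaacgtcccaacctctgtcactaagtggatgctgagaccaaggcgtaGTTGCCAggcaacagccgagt
1700109H08Rik (chr5:3571466-3571715, plus strand): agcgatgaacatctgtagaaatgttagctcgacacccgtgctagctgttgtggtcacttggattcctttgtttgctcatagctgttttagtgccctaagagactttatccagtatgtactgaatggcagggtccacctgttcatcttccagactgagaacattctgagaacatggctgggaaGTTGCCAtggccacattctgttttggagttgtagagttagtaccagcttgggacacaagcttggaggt
1700001K19Rik (chr12:110682620-110682869, minus strand): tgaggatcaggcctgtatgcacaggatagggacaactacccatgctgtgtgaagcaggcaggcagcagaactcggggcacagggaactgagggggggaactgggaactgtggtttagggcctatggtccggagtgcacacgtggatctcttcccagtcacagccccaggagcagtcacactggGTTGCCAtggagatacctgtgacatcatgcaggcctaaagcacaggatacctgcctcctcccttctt
1700010H22Rik (chr5:98568558-98568807, minus strand): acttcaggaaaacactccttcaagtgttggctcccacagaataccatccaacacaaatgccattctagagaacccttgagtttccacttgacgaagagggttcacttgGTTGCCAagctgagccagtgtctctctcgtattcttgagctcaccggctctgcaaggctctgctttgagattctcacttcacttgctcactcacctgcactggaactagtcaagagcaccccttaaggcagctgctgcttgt
1700008K24Rik (chr17:49113534-49113783, minus strand): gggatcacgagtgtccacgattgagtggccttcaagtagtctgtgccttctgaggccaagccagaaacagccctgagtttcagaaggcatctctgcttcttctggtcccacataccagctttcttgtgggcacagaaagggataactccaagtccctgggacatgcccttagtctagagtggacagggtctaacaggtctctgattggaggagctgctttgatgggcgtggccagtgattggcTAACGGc

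The X-box arm lies 21 bases before the start in 1700001L19Rik, 68 in 1700109H08Rik, 67 in 1700001K19Rik and 142 in 1700010H22Rik, and the MYB core 7 bases before it in 1700008K24Rik. 1700001L19Rik had 762 and 677 at day 30, against 13.9 and 22.7 at day 20. 1700109H08Rik had 1895 and 1558 at day 30, against 121 and 55.6 at day 20. 1700001K19Rik had 378 and 441 at day 30, against 24.8 and 18.3 at day 20. In all 3 both samples of day 30 were above every sample of days 18 and 20. 1700010H22Rik, the weaker case, had 203 and 204 at day 35, against 109 and 40.5 at day 0.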

How the data were processed

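The authors deposited linear signal intensities of each probe set, scaled to a mean of 125 per the labels' descriptions. With the highest and lowest 2% left out, the mean of every array was between 125 and 125.1. Which software made them is not given in the sources used here, and no detection calls were used, so the number of arrays limits the precision. An array had 46.0% to 63.1% of its probe sets at 50 or more. Groups follow the day in the labels, with 2 samples per day on each array type.

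Of 36899 probe sets, 29131 named 1 gene in the platform annotation and 724 named several, which were left out. Those that reached 50 on 2 or more of the 22 arrays of a type were used, and the one with the highest mean stood for its gene, which gave 13472 genes. Each type was fitted in limma 3.58.1 (R 4.3.3) on log2(signal + 16), with 11 day means, a variance trend and 11 residual degrees of freedom before moderation. Fold changes are on this scale, which understates changes of low signals. P-values are two-sided and Benjamini-Hochberg adjusted over the whole table. Called means an adjusted p under 0.05 and at least 2-fold (for the F-test, between the highest and lowest day mean). The script was tested on simulated data. Tables were handled in Python 3.11.15 with pandas 2.3.3.

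Named loci were the 4 largest rises and falls of each of 6 windows among called loci whose samples did not overlap, the 4 largest changes for each onset day, the 6 brightest at day 56, the 8 largest falls, the 6 with the highest peak between the ends, and the 4 brightest not called over all days; others are marked as chosen after their values were seen. Gene class, chromosome, overlap and second names come from a RefSeq gene table (GRCm38.p6), whose positions served only to find neighbours and overlaps. The printed upstream sequences and their positions come from a RefSeq promoter table of the same build. The loci, lists and tests were chosen with earlier results of these data known. Alternatives were pseudocounts of 1 and 64, no signal limit and a limit of 125, quantile and median scaling, the mean of a gene's probe sets, suffixed probe sets left out, a replicate block, each sample left out, and, added after seeing the data, days 0 and 20 from 1 sample each.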

Additional observations from a re-analysis of the deposited data

How the results depend on the processing

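Over the alternatives, 54.2% to 71.4% of the loci were higher at day 56, against 13% to 18.9% of all genes. The count of falls from day 0 to day 56 was 4 with a pseudocount of 64 and 4 with a signal limit of 125, against 7. The count called from day 35 to day 56 was 2 with a pseudocount of 64, 2 without a signal limit and 1 with median scaling, against 0. With suffixed probe sets left out, which leaves 176 loci, 1 was called from day 0 to day 8 and 48 from day 20 to day 35, against 4 and 77, and 4930453N24Rik changed by 3.86 in place of -0.42. Median scaling moved the median log2 change of all genes from day 0 to day 56 to -0.03, against -0.21 as deposited, and gave 169 loci higher, against 158. With days 0 and 20 from 1 sample each, 154 were higher at day 56, 55 rose from day 14 to day 20 and 62 from day 20 to day 35.

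Leaving out 1 sample at a time gave 169 to 182 loci called over all days, 3 to 5 from day 0 to day 8, 8 to 10 from day 8 to day 14, 53 to 65 from day 14 to day 20, 55 to 71 from day 20 to day 35, 0 to 1 from day 35 to day 56 and 154 to 161 from day 0 to day 56, of which 147 to 153 were higher and 7 to 9 lower, and 147 to 158 with an onset. For each span these ranges rest only on the 4 samples of its first and last day, left out in turn. Those over all days and with an onset rest on all 22. Differences between samples 1 and 2 correlated between days from -0.20 to 0.55. The correlation was over 0.1 in 28, 31 and 22 of the 55 day pairs on types A, B and C. Many pairs of days thus shared a difference tied to the sample number, which the main fit did not model. With the replicate block, which models it, 1 locus was called from day 35 to day 56, 65 from day 14 to day 20, and 158 were higher at day 56. Of the single changes from day 0 to day 56 of the named loci, 642 kept their direction and call over the alternatives, 17 lost the call, 3 gained one and 1 reversed. The 86 loci without a call had a median signal of 94.3 at day 56, against 87.1 at day 0, where 2 samples per day give little precision.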
